A study of Mus musculus with 15 samples.

Results

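Interferon-stimulated genes are the genes that a cell transcribes in answer to interferons. A set of 43 of them with their regulators, listed by name, was followed in 15 mouse tumors. They are 43 of 23329 genes in the count table, and all 43 had over 1 CPM (reads scaled by library size) in at least 3 tumors and were among the 14880 genes tested. Each tumor was 1 bulk RNA sequencing library from 1 mouse. EμMyc mice express c-Myc in B-lineage cells from the enhancer of the immunoglobulin heavy chain, and their lymphomas were taken from cervical lymph nodes of C57BL/6 mice. They comprised 4 EμMyc tumors (EuMyc614, EuMyc743b, EuMyc829 and EuMyc835) with an onset of 13 to 19 weeks, and 3 EμMyc/Casp2-/- tumors (EuMycC2ko215, EuMycC2ko239 and EuMycC2ko245) with an onset of 8 to 12 weeks. Th-MYCN mice express MYCN in sympathetic precursors from the promoter of tyrosine hydroxylase, and their neuroblastomas were paraspinal thoracic tumors of Sv129/C57BL6 mice, chosen for little or no vascularization. They comprised 4 Th-MYCN tumors (MYCN175, MYCN235, MYCN332 and MYCN391) with an onset of 10 to 21 weeks, and 4 Th-MYCN/Casp2-/- tumors (MYCNC2ko118, MYCNC2ko144, MYCNC2ko176 and MYCNC2ko180) with an onset of 15 to 24 weeks. Every mouse carried a transgene of the Myc family, and the Casp2-/- mice lacked the protease caspase-2 in tumor and host cells alike. The Casp2+/+ tumors of each type are called wild type here, and values of a group are always listed in the order of the tumors above.

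Type I interferons bind a receptor of Ifnar1 and Ifnar2 chains, whose kinases Jak1 and Tyk2 phosphorylate Stat2. Stat2 and Irf9 are parts of the factor ISGF3, which binds the interferon-stimulated response element (ISRE) in promoters. Interferon gamma binds a receptor of Ifngr1 and Ifngr2 chains, and promoters that answer to it hold the gamma-activated sequence (GAS). Irf7 carries the response further by driving interferon genes, and Usp18 brakes it by removing Isg15 from proteins and by shielding the type I receptor. The products of the other members detect foreign nucleic acid, tag proteins with Isg15, degrade viral RNA or block the entry and assembly of virus, and a low tonic level of these genes is usual in lymphoid tissue.

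Both elements can be read in promoters of these genes. RefSeq promoter windows of 300 bases, 250 before to 50 after each start on GRCm38, were matched for 32 members and were not used for the other 11, which are Usp18, Dhx58, Zbp1, Oas2, Mx1, Mx2, Parp9, Parp14, Rtp4, Ifi27l1 and Ifi27l2a. The ISRE core was searched as GAAANNGAAA on both strands, and the GAS as TTCNNNGAA, which reads the same on both. An ISRE core lay in a window of 16 of 32 members (50.0%) and of 1079 of 27025 genes in the table of promoters (3.99%). A GAS lay in 7 of 32 (21.9%) and in 2582 of 27025 (9.55%), and 5 members had both. The core was in 4 of 4 matched interferon-inducible GTPases, 3 of 3 RNA and DNA sensors, 5 of 9 antiviral effectors, 2 of 4 OAS genes, 1 of 4 genes of the Isg15 system, 1 of 3 regulators, and 0 of 1 gene of the PARP and DTX3L group and 0 of 4 further members. A match is a string of letters and not a known binding site, and where no match was found only these letters are missing from this window. Of the promoters, 5 that hold the core are printed below as 60 bases of the sense strand of the gene, 5′ to 3′, with every matched letter in capitals, for members of 4 role groups that are followed through the results:
Isg15 (chr4:156200862-156200921, minus strand, first match 78 bases before the start): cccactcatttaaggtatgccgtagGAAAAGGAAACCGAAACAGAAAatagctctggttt
Ifit1 (chr19:34640760-34640819, plus strand, first match 104 bases before the start): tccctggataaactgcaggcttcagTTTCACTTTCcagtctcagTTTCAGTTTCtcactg
Rsad2 (chr12:26456538-26456597, minus strand, first match 120 bases before the start): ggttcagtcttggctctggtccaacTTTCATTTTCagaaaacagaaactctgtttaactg
Oas1a (chr5:120907511-120907570, minus strand, first match 20 bases before the start): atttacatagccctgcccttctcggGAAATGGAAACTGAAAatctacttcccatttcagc
Gbp3 (chr3:142559974-142560033, plus strand, first match 45 bases before the start): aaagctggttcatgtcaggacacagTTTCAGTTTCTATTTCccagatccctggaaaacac
Isg15 has 3 overlapping cores in a row on the sense strand. Ifit1 has 2 separate cores and Gbp3 2 overlapping ones, read on the antisense strand, and Rsad2 has 1. Oas1a has 2 that overlap on the sense strand. Some members sit side by side in the genome, namely Rsad2 and Cmpk2 on chromosome 12, the Oas genes on chromosome 5, Ifit1, Ifit2 and Ifit3 on chromosome 19, and Parp9, Parp14 and Dtx3l on chromosome 16.

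Counted reads per library ran from 4940464 (EuMycC2ko215) to 17638029, so that 3 reads, taken as the floor, were worth 0.173 to 0.586 CPM, which covers counting error only. EuMycC2ko215 stood apart from the other 6 lymphomas, with 11.2% unmapped reads against 3.15 to 3.89%, 14186 genes with a read against 15068 to 15834, and Myc at 498 CPM against 1238 to 1914 CPM. Tumor types were told apart by their markers. The 6 B cell markers summed to 1886 to 4710.4 CPM in the lymphomas and 4.18 to 14.1 CPM in the neuroblastomas, and 7 neuroblast markers to 1.89 to 16.8 and 2414 to 4538 CPM. Casp2 reads remained in the knockouts, and a count per gene does not tell from which exons. They were at 62 ± 12.6 (SD, n = 3) CPM against 159 ± 34.2 (SD, n = 4) in EμMyc tumors (log2 fold change -1.35 ± 0.26 SE, edgeR QLF FDR 0.0541), with no overlap between the groups, and at 58 ± 16.7 (SD, n = 4) against 100.3 ± 20.9 (SD, n = 4) in the neuroblastomas (-0.79 ± 0.23 SE, edgeR QLF FDR 0.334), with overlap. Reads fell on either strand alike (43.4 to 55.7% of a member's stranded reads in the column used). On exons shared with a gene on the opposite strand, the 2 genes thus cannot be told apart. Gene bodies overlap on opposite strands for Irf7 with Phrf1, Rtp4 with Masp1, Ifi27l1 with Ifi27l2a, and Parp9 with Dtx3l. Reads on shared exons enter a single-strand count but not the count on either strand. For Irf7 (1503 and 1553 reads by strand, 3056 on either) and Rtp4 (615 and 647, 1262 on either) the strands add up, so no counted read was shared. Ifi27l1 (9305 and 9216, 18514 on either) shared few, and Parp9 (4216 and 4332, 8253 on either) shared more. Irf9 overlaps Rnf31 and Igtp overlaps Irgm2 on the same strand, where reads of shared bases were not counted. Close paralogs (the Ifit, Oas, Gbp and Ifi27 families) are uncertain too, because reads that mapped to several places were not counted. In tumors that hold several cell types, fewer cells of a type and less RNA per cell cannot be told apart.

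The members were not silent in either tumor type, but most were low. In all, 37 of 43 had over 3 reads in every tumor, and the other 6, namely Oas1a, Oas3, Oasl1, Mx1, Mx2 and Ifi44, were at or under 3 reads in 1 to 6 tumors. Per kilobase of exon, which allows genes to be compared (42 members, Mx2 left out for want of a length), the highest mean level in the lymphomas was that of Bst2, a tether of budding virus, at 117.7 CPM per kb. Next came Ifi27l2a (86.1), Ifi27l1 (47.2), Ifitm3 (47.1) and Trim25 (42.7). In the neuroblastomas Ifi27l1 led (52.7), before Ifitm3 (18.6), Bst2 (11.6), Stat2 (11.3) and Lgals3bp (9.47). At the other end Oas3 was at 0.626 CPM per kb in the lymphomas and 0.0787 in the neuroblastomas. Trim25, Samd9l, Dtx3l and Sp100 stood 5th, 7th, 9th and 12th in the lymphomas and 12th, 31st, 29th and 36th in the neuroblastomas.

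**Figure D1:**
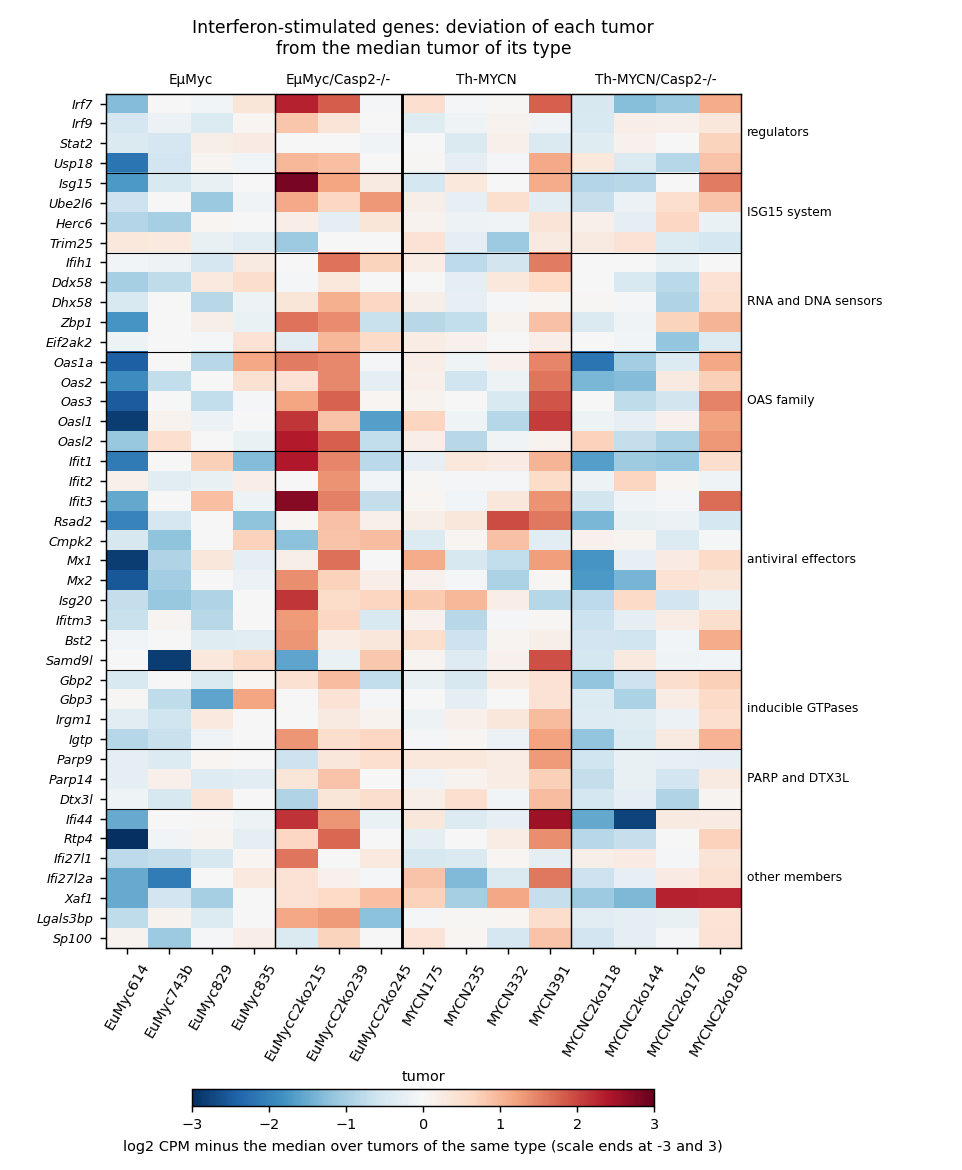
Deviation of each of the 15 tumors (columns) from the median tumor of its type for the 43 members (rows, by role), in log2 CPM on a color scale that ends at -3 and 3. EuMyc614 is the lowest lymphoma for 21 members (all genes 13.6%). EuMycC2ko215 and EuMycC2ko239 are the highest lymphomas for 18 (all genes 25.5%) and 13 (all genes 10.3%). MYCN391 and MYCNC2ko180 are the highest neuroblastomas for 21 (all genes 11.9%) and 13 (all genes 16.6%), and MYCNC2ko118 is the lowest for 20 (all genes 12.3%).

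The first comparison asked how lymphomas without caspase-2 differ from those that have it. Most members lay higher in EμMyc/Casp2-/- than in EμMyc tumors, but no single member passed the test. EuMycC2ko239 lay above every EμMyc tumor for 33 members (all genes 16.7%), EuMycC2ko215 for 28 (all genes 28.6%) and EuMycC2ko245 for 18 (all genes 14.8%). With edgeR's quasi-likelihood test (QLF), where a call needs a Benjamini-Hochberg FDR under 0.05 over all genes and a change of over 2-fold, 0 of 43 members were called (all genes 0.141%). The fitted log2 fold change was nevertheless above 0 for 42 of 43 members, with a median of 1.04 over the members and -0.03 over all genes tested. At an unadjusted p under 0.05, 15 of 43 members lay higher and 0 lower (all genes 5.52% higher and 2.97% lower). These were Irf7, Irf9, Isg15, Ube2l6, Dhx58, Oasl2, Ifit1, Ifit3, Isg20, Ifitm3, Bst2, Igtp, Parp14, Ifi27l1 and Lgals3bp. For 10 members every EμMyc/Casp2-/- tumor lay above every EμMyc tumor (all genes 1.75%), and for 0 members every one lay below (all genes 1.96%). The likelihood ratio test (LRT) of edgeR called 1 member higher (all genes 1.14%), Ifi27l1, and DESeq2 called 3 (all genes 1.08%), Ifi27l1, Ube2l6 and Isg20. The count at p under 0.05 was 8 without EuMyc614, 10 without EuMycC2ko215 (median log2 fold change 0.85) and 22 without EuMycC2ko245. The share of all genes at that p was not computed for these fits. Without EuMycC2ko245 QLF also called Lgals3bp, but over all genes it called 148 higher and 15 lower, against 14 and 7 with all tumors. The median over the members stayed between 0.82 and 1.28 when any 1 lymphoma was left out. Age at onset did not overlap between these groups, so it and the genotype cannot be told apart.

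Among the regulators, Irf7, the factor that amplifies the interferon response, was at 3.67, 9.24, 8.74 and 11.9 CPM in the EμMyc tumors and 46.5, 32.7 and 8.88 CPM in the EμMyc/Casp2-/- tumors. EuMycC2ko215 and EuMycC2ko239 were above every wild-type tumor, whereas EuMycC2ko245 was within their range, and the log2 fold change was 1.80 ± 0.68 (SE, edgeR QLF FDR 0.435). Irf9, the DNA-binding part of ISGF3, was at 26.7, 33.5, 28.8 and 39.5 against 67.6, 49.9 and 38.1 CPM, a log2 fold change of 0.69 ± 0.24 (SE, edgeR QLF FDR 0.391), with the same tumor overlapping. Usp18 had 0.962, 3.25, 5.28 and 4.67 against 9.96, 9.43 and 4.95 CPM (1.19 ± 0.60 SE, edgeR QLF FDR 0.618). Its lowest value was that of EuMyc614. Stat2, the ISGF3 subunit that carries the activating domain, was at 45.8, 44, 69.8 and 73.9 against 61.9, 62.9 and 57.8 CPM, and the knockout tumors lay within the wild-type range (0.06 ± 0.26 SE).

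In the Isg15 system, Isg15 itself, the ubiquitin-like protein, had the largest fold of all members in this comparison. It was at 0.787, 2.14, 2.52 and 2.97 CPM in the EμMyc tumors and 22.3, 7.01 and 3.63 CPM in the EμMyc/Casp2-/- tumors. The groups did not overlap, EuMycC2ko215 was the highest by far, and the log2 fold change was 2.37 ± 0.75 (SE, edgeR QLF FDR 0.309) with all tumors and 1.36 without EuMycC2ko215. Ube2l6, the conjugating enzyme for Isg15, also did not overlap, with means of 7.26 ± 2.44 (SD, n = 4) and 20 ± 4.58 (SD, n = 3) CPM (1.46 ± 0.42 SE, edgeR QLF FDR 0.25, DESeq2 FDR 0.0297). Herc6, the mouse ligase for Isg15, gave 0.50 ± 0.35 (SE). Trim25, a ligase that activates the RNA sensor encoded by Ddx58, was the only member with a value under 0, at 325, 318, 222 and 208 against 122, 262 and 261 CPM (-0.32 ± 0.35 SE), and EuMycC2ko215 was its lowest lymphoma.

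The sensors ranged from 0.19 (Ddx58, which encodes RIG-I) to 1.43 (Zbp1, a sensor of Z-form nucleic acid) on the log2 scale. Dhx58, a relative of RIG-I without signaling domains, was the sensor whose groups did not overlap, at 8.98 ± 2.19 (SD, n = 4) against 18.7 ± 4.76 (SD, n = 3) CPM (1.06 ± 0.36 SE, edgeR QLF FDR 0.355). Eif2ak2, the kinase PKR, which stops translation on double-stranded RNA, was at 25.2, 28, 27 and 37.6 against 22.5, 56.3 and 42 CPM, with EuMycC2ko215 the lowest of all lymphomas and EuMycC2ko239 the highest (0.46 ± 0.32 SE). The genes of the OAS family, which includes enzymes that make the signal that activates RNase L, lay between 1.03 (Oas2) and 1.82 (Oas3). EuMyc614 had the lowest value for 5 of 5. Only Oas3 did not overlap between groups among them. Oasl2, an OAS-like protein, was at 1.49, 4.96, 3.46 and 2.97 against 18.6, 12.4 and 2.02 CPM (1.76 ± 0.68 SE, edgeR QLF FDR 0.45). Here too EuMycC2ko215 and EuMycC2ko239 stood above the EμMyc tumors and EuMycC2ko245 within them. Without EuMycC2ko215 the log2 fold change was 1.18 for Oasl2, 1.33 for Irf7 and 0.47 for Irf9.

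Among the antiviral effectors, Isg20, an exonuclease of single-stranded RNA, was at 2.45, 1.8, 2.13 and 4.14 against 18.8, 6.09 and 6.56 CPM with no overlap, highest in EuMycC2ko215 (1.98 ± 0.58 SE, edgeR QLF FDR 0.258, DESeq2 FDR 0.0495). Ifit1, which binds viral RNA ends, was at 0.35, 2.05, 3.46 and 0.743 against 11.5, 5.93 and 1.11 CPM (1.87 ± 0.83 SE, edgeR QLF FDR 0.548). Its values overlapped, since EuMycC2ko245 lay within the EμMyc range. Rsad2 (viperin), which makes a chain-terminating nucleotide, was at 1.4, 4.28, 6.14 and 2.55 against 6.45, 11.4 and 6.86 CPM, a complete separation of the groups by a small margin (1.20 ± 0.58 SE, edgeR QLF FDR 0.602). Bst2 was at 83.4, 87.9, 67.7 and 70.6 against 221, 102 and 111 CPM, again with no overlap (0.90 ± 0.39 SE, edgeR QLF FDR 0.524). Without EuMycC2ko215 the log2 fold change of Isg20 was 1.28, that of Ifit1 1.11 and that of Bst2 0.48. Mx2 was the remaining effector without overlap (1.57 ± 0.77 SE). Ifit2, a relative of Ifit1, was at 12, 8.47, 9.13 and 12.3 against 10.7, 27.4 and 10.1 CPM, and only EuMycC2ko239 was above the EμMyc tumors. Cmpk2, a mitochondrial nucleotide kinase beside Rsad2 in the genome, was at 9.97, 5.9, 13.9 and 22.5 against 5.86, 25.3 and 26.7 CPM, with EuMycC2ko215 the lowest lymphoma. Samd9l, a growth-restricting antiviral protein, was at 128, 17.5, 159 and 190.4 against 42.8, 112 and 227 CPM, and its groups overlapped widely (0.04 ± 0.67 SE).

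The GTPases that attack vacuoles of pathogens gave 0.07 (Gbp3) to 1.24 (Igtp) on the log2 scale, and Igtp did not overlap between groups (edgeR QLF FDR 0.50). Irgm1, the regulator among them, was at 45.1, 38.1, 70.6 and 57.3 against 56.8, 69.5 and 61.6 CPM (0.25 ± 0.30 SE), a difference under the spread between tumors. Parp14, an ADP-ribosyltransferase, was at 46.2, 62.4, 42.8 and 45.2 against 71.9, 102 and 56.1 CPM (0.64 ± 0.28 SE, edgeR QLF FDR 0.544), and Dtx3l, the ligase partner of Parp9, at 68.5, 53.5, 98.4 and 75.1 against 39.9, 97 and 109 CPM (0.15 ± 0.34 SE). EuMycC2ko215 was the lowest lymphoma for Dtx3l and for Parp9. Ifi27l1, a small mitochondrial protein of the Ifi27 family, was at 24, 25.2, 29.8 and 43 against 126, 41.4 and 50.5 CPM (1.25 ± 0.32 SE, edgeR QLF FDR 0.179, LRT FDR 0.0237, DESeq2 FDR 0.0233). Its log2 fold change was 0.61 without EuMycC2ko215, by the same QLF. Ifi44 was at 0.437, 1.54, 1.57 and 1.38 against 7.42, 4.09 and 1.31 CPM, Xaf1, a pro-apoptotic protein, at 1.75, 3.51, 2.6 and 5.31 against 7.23, 8.18 and 9.99 CPM with no overlap, and Sp100, a nuclear body protein, at 86.7, 38, 76.9 and 92.8 against 59.2, 129 and 80.5 CPM. Of these 3, Ifi44 had the lowest edgeR QLF FDR (0.676). Further members whose groups overlapped were Ifih1 (1.04 ± 0.56 SE), Oas1a (1.18 ± 0.94 SE), Oasl1 (1.52 ± 0.92 SE), Ifit3 (1.73 ± 0.77 SE), Mx1 (1.39 ± 0.80 SE), Ifitm3 (0.94 ± 0.40 SE), Gbp2 (0.57 ± 0.50 SE), Rtp4 (1.44 ± 0.69 SE), Ifi27l2a (0.69 ± 0.61 SE) and Lgals3bp (0.99 ± 0.42 SE).

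**Figure D2:**
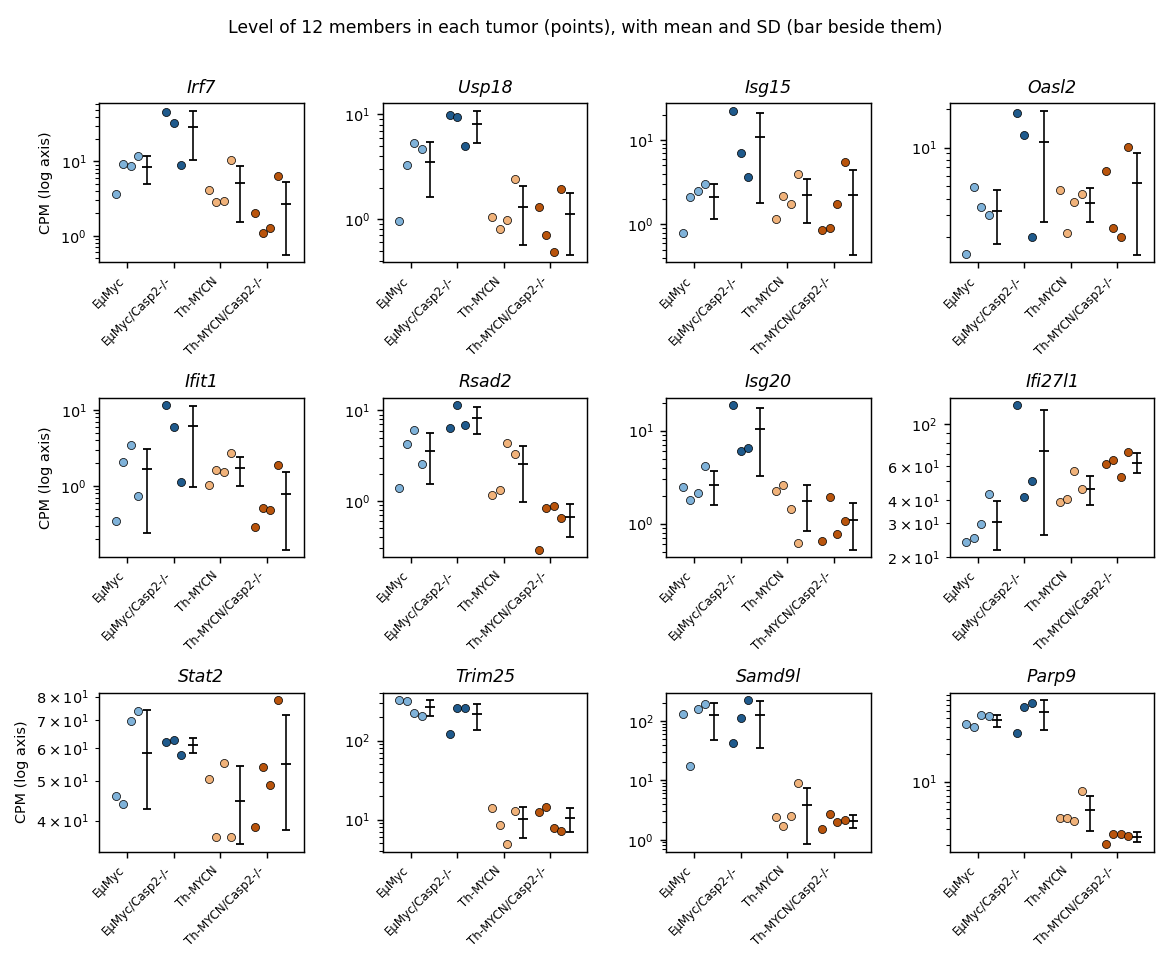
Level of 12 members in CPM (log axis) in each tumor (points, 1 per tumor) of the 4 groups, with the group mean and SD as a bar beside them, the lower bar being cut at 0.5 times the lowest tumor where it would pass below. Irf7, Isg15, Oasl2 and Ifit1 separate EuMycC2ko215 and EuMycC2ko239 from the other lymphomas, whereas Trim25, Samd9l and Parp9 separate all lymphomas from all neuroblastomas.

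The same question was asked of the neuroblastomas, where most members lay somewhat lower in Th-MYCN/Casp2-/- than in Th-MYCN tumors and none passed the test. QLF called 0 of 43 members (all genes 0.0336%), as did the LRT (all genes 0.813%) and DESeq2 (all genes 0.78%). Of the 43 fitted log2 fold changes 31 were below 0, with a median of -0.25 over the members and -0.0024 over all genes. At an unadjusted p under 0.05, 3 members lay lower (all genes 4.25%) and 0 higher (all genes 2.48%). For 2 members, Rsad2 and Parp9, every Th-MYCN/Casp2-/- tumor lay below every Th-MYCN tumor (all genes 3.68%), and for 0 members every one lay above (all genes 2.94%). The median turned to 0.03 without MYCN391, and was -0.61 without MYCNC2ko180. The count at p under 0.05 was 8 without MYCNC2ko180 and 2 without MYCN235, MYCN391, MYCNC2ko118 or MYCNC2ko176.

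Rsad2 was at 1.16, 1.31, 4.33 and 3.33 CPM in the Th-MYCN tumors and 0.288, 0.835, 0.868 and 0.65 CPM in the Th-MYCN/Casp2-/- tumors (-1.93 ± 0.59 SE, edgeR QLF FDR 0.351, LRT FDR 0.103). The separation was complete, but MYCN175 and MYCN235 lay close to the knockout tumors. Reads were few, with 19 in MYCN175, 18 in MYCN235 and 4, 13, 9 and 8 in the knockout tumors, where the floor is 3 reads. Parp9, which acts with Dtx3l, was at 3.91, 3.92, 3.69 and 7.84 against 2.02, 2.63, 2.6 and 2.52 CPM (-0.99 ± 0.30 SE, edgeR QLF FDR 0.357), and Dtx3l at 3.66, 4.58, 3.0 and 6.24 against 2.16, 2.63, 1.64 and 3.41 CPM (-0.82 ± 0.34 SE, edgeR QLF FDR 0.652). These are the 3 members with p under 0.05. Parp14 was at 5.62, 6.61, 7.16 and 10.1 against 3.67, 5.2, 4.05 and 7.39 CPM (-0.53 ± 0.27 SE), with MYCN391 the highest.

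The regulators overlapped between the neuroblastoma groups. Irf7 was at 4.15, 2.83, 2.94 and 10.3 against 2.02, 1.09, 1.25 and 6.42 CPM (-0.91 ± 0.65 SE), and Usp18 at 1.04, 0.799, 0.981 and 2.41 against 1.3, 0.707, 0.482 and 1.95 CPM (-0.23 ± 0.59 SE). Both were highest in MYCN391 among wild-type tumors and in MYCNC2ko180 among knockout tumors. Irf9 was at 18.3, 21.4, 25.3 and 21.6 against 17, 27, 26 and 29.7 CPM, and Stat2 at 50.4, 36.5, 55.2 and 36.5 against 38.5, 54.1, 48.9 and 78.6 CPM, for which MYCNC2ko180 was the highest of all 15 tumors. Isg15 was at 1.16, 2.18, 1.73 and 3.95 against 0.864, 0.90, 1.74 and 5.44 CPM, with the highest value again in MYCNC2ko180, and the difference of -0.02 ± 0.69 (SE) was smaller than its error. Trim25 was at 14.2, 8.64, 4.85 and 12.7 against 12.6, 14.3, 7.81 and 7.15 CPM (0.06 ± 0.34 SE).

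Oasl2 was at 4.64, 2.18, 3.75 and 4.32 against 6.63, 2.38, 2.02 and 10.1 CPM (0.50 ± 0.63 SE), whereas the other 4 OAS genes had negative values between -0.86 (Oas1a) and -0.51 (Oas3). Eif2ak2 was at 6.78, 6.32, 5.71 and 6.67 against 5.91, 5.46, 2.51 and 4.31 CPM (-0.48 ± 0.31 SE). Ifit1 was at 1.04, 1.6, 1.5 and 2.72 against 0.288, 0.514, 0.482 and 1.87 CPM (-1.12 ± 0.80 SE), and MYCNC2ko180 alone kept it within the Th-MYCN range. For Isg20 the values were 2.26, 2.61, 1.44 and 0.618 against 0.648, 1.93, 0.771 and 1.06 CPM, for Ifit2 22.7, 21.6, 21.5 and 32.6 against 19.8, 34.5, 22.9 and 20.3 CPM, for Cmpk2 13.7, 19, 33.8 and 14.5 against 19.9, 19.2, 13.8 and 17.6 CPM, and for Bst2 13.6, 6.25, 10.2 and 10.9 against 6.41, 6.3, 9.06 and 21 CPM. All 4 overlapped. Samd9l was at 2.38, 1.67, 2.48 and 8.96 against 1.51, 2.76, 2.02 and 2.11 CPM, where MYCN391 stood apart from the other 7.

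Irgm1 was at 4.21, 5.3, 6.0 and 9.2 against 3.6, 3.66, 4.15 and 6.74 CPM (-0.45 ± 0.29 SE), and Sp100 at 3.3, 2.54, 1.67 and 4.51 against 1.58, 1.99, 2.31 and 3.33 CPM (-0.39 ± 0.37 SE), with MYCN391 the highest for both. Ifi27l1 had 39.2, 40.5, 56.8 and 45.5 against 61.9, 65.1, 52.9 and 71.5 CPM (0.47 ± 0.30 SE). Ifi44 was at 1.22, 0.654, 0.75 and 6.18 against 0.216, 0, 1.16 and 1.14 CPM (-1.83 ± 0.97 SE), where MYCN391 was the highest and MYCNC2ko144 had no read. Xaf1 gave the largest positive value, 1.14 ± 0.79 (SE, edgeR QLF FDR 0.93), from 3.12, 0.872, 4.39 and 1.11 against 0.792, 0.643, 9.93 and 9.75 CPM. MYCNC2ko176 and MYCNC2ko180 were more than 10 times as high as MYCNC2ko118 and MYCNC2ko144.

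**Figure D3:**
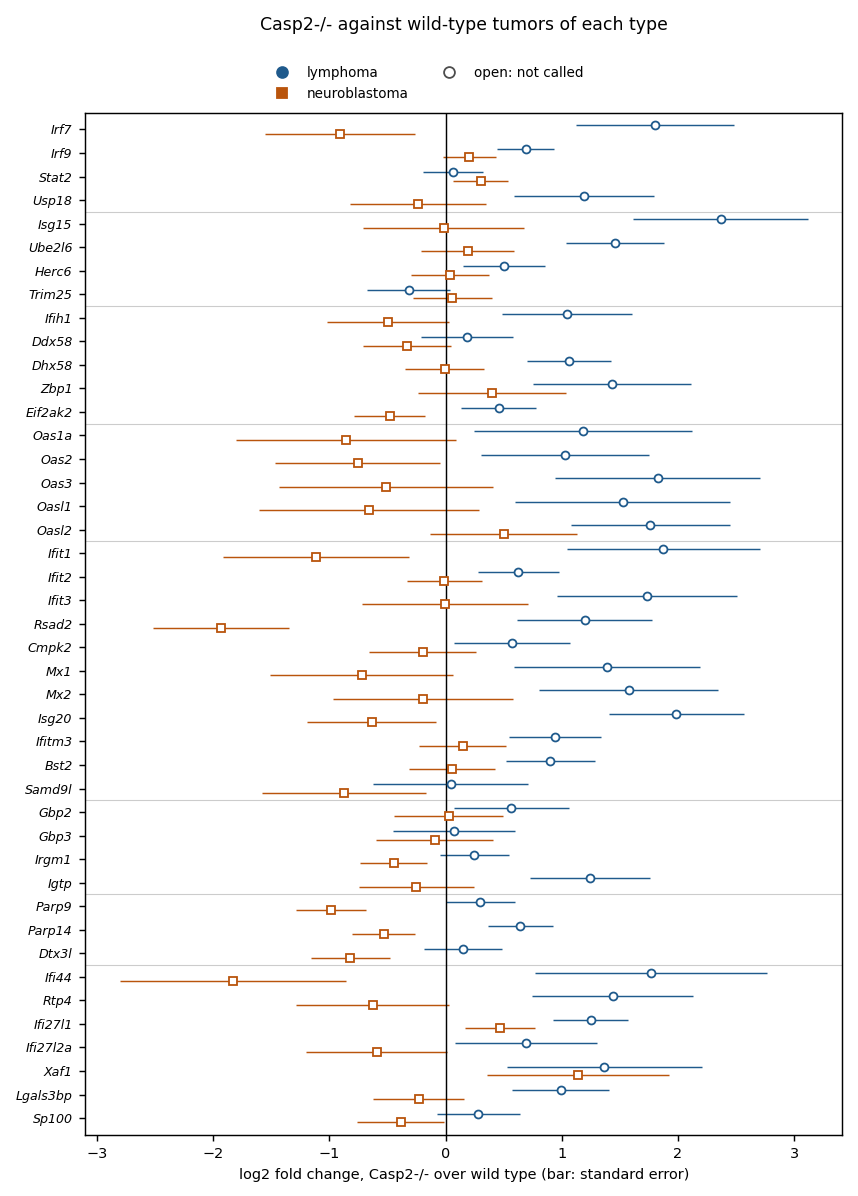
Fitted log2 fold change of Casp2-/- over wild-type tumors for the 43 members, with standard error bars, in lymphomas (circles) and neuroblastomas (squares). All symbols are open because QLF called 0 members in either tumor type, and 42 circles but 12 squares lie above 0.

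Whether the genotype difference itself differed between tumor types was tested as an interaction. QLF called 0 of 43 members (all genes 0.0538%), while 12 had an unadjusted p under 0.05 with a more positive value in the lymphomas (all genes 4.91%) and 0 with a less positive one (all genes 2.61%). The LRT called 1 member (all genes 0.726%), and so did DESeq2 (all genes 0.659%). In both it was Rsad2, with an interaction of 3.13 ± 0.82 on the log2 scale (SE, edgeR QLF FDR 0.322, LRT FDR 0.0346, DESeq2 FDR 0.0314). It alone among the members separated the genotypes completely in both tumor types, upward in the lymphomas (all genes 1.75%) and downward in the neuroblastomas (all genes 3.68%). The share of all genes that do both was not computed. The interaction of Rsad2 ran from 2.74 to 3.51 when 1 tumor at a time was left out, with an edgeR QLF FDR of 0.167 to 0.556. Ifi44 had the largest value, 3.60 ± 1.40 (SE, edgeR QLF FDR 0.579), and after Rsad2 came Ifit1 (2.99 ± 1.15 SE) and Irf7 (2.71 ± 0.94 SE, edgeR QLF FDR 0.48). The number with p under 0.05 was 7 without EuMyc614, 7 without MYCN391 and 21 without MYCNC2ko180.

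Many members were higher in lymphomas than in neuroblastomas, led by Samd9l, Trim25, Sp100 and Dtx3l among wild-type tumors. These comparisons carry strain and tissue with them, which cannot be told apart from tumor type, and they rest on separate tumors for wild type and Casp2-/-. Among wild-type tumors QLF called 18 of 43 members higher in the lymphomas (all genes 18.3%) and 1 lower (all genes 27.8%), with a median log2 fold change of 1.27 (all genes -0.04). Among Casp2-/- tumors it called 35 higher (all genes 19.7%) and 0 lower (all genes 26.6%), with a median of 2.95 (all genes -0.05). The 18 members called higher in the wild-type comparison were all among the 35. A further 17 were called among the Casp2-/- tumors only, and the interaction above, which is the test of that difference, called 0 of them by QLF. An ISRE core lay in 6 of the 12 members with a promoter window among the 18, and in 8 of 14 among the 17.

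The members higher in lymphomas in both comparisons were led, among wild-type tumors, by Samd9l (log2 fold change 4.99 ± 0.74 SE among wild-type and 5.91 ± 0.80 SE among Casp2-/- tumors, edgeR QLF FDR 3.37e-05 and 1.58e-05), Trim25 (4.73 ± 0.38 and 4.36 ± 0.39 SE), Sp100 (4.61 ± 0.40 and 5.28 ± 0.42 SE) and Dtx3l (4.08 ± 0.36 and 5.05 ± 0.39 SE). All 3 genes of the PARP and DTX3L group were called in both, as were 3 of 4 GTPases (Gbp3, Irgm1 and Igtp), 3 of 4 genes of the Isg15 system (Ube2l6, Herc6 and Trim25) and 3 of 5 sensors (Ddx58, Dhx58 and Eif2ak2). Trim25 was at 268 ± 61.6 (SD, n = 4) CPM in EμMyc and 10.1 ± 4.2 (SD, n = 4) CPM in Th-MYCN tumors. Usp18, Oas2, Bst2 and Ifi27l2a were called in both as well, and Usp18 was close to the threshold among wild-type tumors (edgeR QLF FDR 0.0442). Its call was lost with RLE scaling, with no filter on low counts, with only the groups compared, and without any of 6 tumors, and that of Oas2 without any of 4. For 14 members, among them Bst2, Irgm1 and Ddx58, each of the 7 lymphomas was above each of the 8 neuroblastomas (all genes 16.6%).

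The 17 members called among Casp2-/- tumors only included Irf7, Isg15, Ifit1, Rsad2 and the 3 OAS genes Oas1a, Oas3 and Oasl1. Irf7 differed by 0.73 ± 0.64 (SE) among wild-type and 3.44 ± 0.72 (SE) among Casp2-/- tumors, Isg15 by -0.10 ± 0.70 and 2.28 ± 0.75, Ifit1 by -0.04 ± 0.77 and 2.95 ± 0.86, and Rsad2 by 0.50 ± 0.55 and 3.63 ± 0.63. Irf9 differed by 0.57 ± 0.23 and 1.06 ± 0.24, and its call was lost without EuMycC2ko215, without MYCNC2ko118 and with counts of either strand. Isg15 was not called without EuMycC2ko215, and with onset as a covariate Isg15, Ifit1, Gbp2, Ifi44 and Rtp4 were not called. In the other direction, Ifit2 was lower in EμMyc than in Th-MYCN tumors (-1.23 ± 0.33 SE, edgeR QLF FDR 0.00423) and was not called among Casp2-/- tumors (-0.59 ± 0.35 SE). The other 7 members, Stat2, Cmpk2, Ifi27l1, Xaf1, Oasl2, Ifit3 and Zbp1, were called in neither comparison. Stat2 differed by 0.39 ± 0.24 and 0.15 ± 0.26 (SE), and Ifi27l1 by -0.58 ± 0.30 and 0.20 ± 0.32 (SE).

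**Figure D4:**
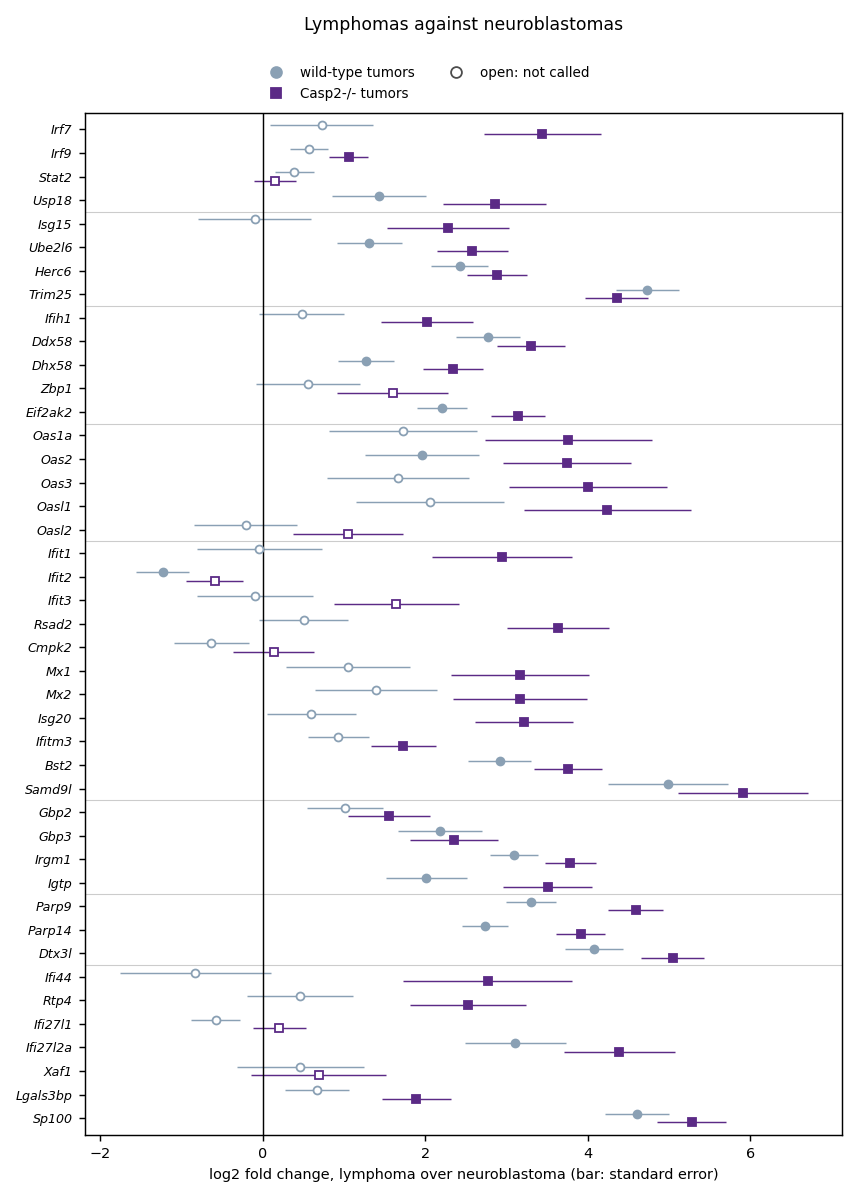
Fitted log2 fold change of lymphomas over neuroblastomas for the 43 members, with standard error bars, among wild-type tumors (circles, 19 filled for a call) and Casp2-/- tumors (squares, 35 filled). The PARP and DTX3L group, Trim25, Samd9l and Sp100 lie far to the right in both, while Isg15, Ifit1, Rsad2 and Ifi44 lie above 2 among Casp2-/- tumors only.

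The rest of the pathway was followed over 52 further genes, of which 43 were tested. The interferon genes that were looked up were at or near 0 reads. Of the Ifna genes only those named here were looked up. Reads that mapped to several places, as those of close paralogs can, were not counted. These values thus do not show that no interferon was transcribed. Ifna1, Ifna2, Ifna4, Ifne, Ifnl2 and Ifnl3 had 0 reads in every tumor, which allows up to 0.173 to 0.586 CPM, Ifnb1 and Ifnk had 1 read each in all 15 tumors together, and Ifng, the T and NK cell interferon, had 4. QLF called 0 pathway genes in either comparison of genotypes and 0 in the interaction, with 4 of 43 higher in EμMyc/Casp2-/- tumors (all genes 5.52%) and 3 of 43 lower in Th-MYCN/Casp2-/- tumors (all genes 4.25%) at an unadjusted p under 0.05. The median log2 fold change of the pathway genes was 0.14 in the lymphomas and -0.21 in the neuroblastomas. The LRT and DESeq2 called 0 of them between genotypes and 1 in the interaction, Ifnlr1, the receptor of lambda interferons, named after its value was seen (4.50 ± 1.14 SE, edgeR QLF FDR 0.322, LRT FDR 0.00877). It was at 0.262, 1.37, 0.236 and 1.17 against 5.27, 3.17 and 2.02 CPM in the lymphomas, higher without overlap (all genes 1.75%). In the neuroblastomas it was at 1.04, 1.89, 1.21 and 3.4 against 0.36, 0.707, 0.386 and 0 CPM, lower without overlap (all genes 3.68%). The share of all genes that do both was not computed. Reads were few, with 3, 16, 3 and 11 in the EμMyc and 5, 11, 4 and 0 in the Th-MYCN/Casp2-/- tumors, some at or under the floor of 3 reads.

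Between tumor types, 25 of 43 pathway genes were called higher in EμMyc than in Th-MYCN tumors (all genes 18.3%) and 1 lower (Adar, an RNA-editing enzyme, all genes 27.8%). Among Casp2-/- tumors 28 of 43 were called higher (all genes 19.7%) and 0 lower (all genes 26.6%). Irf1, a factor induced by interferon gamma, was higher in lymphomas, with means of 47.1 ± 6.03 (SD, n = 4) CPM in EμMyc and 11.7 ± 1.54 (SD, n = 4) CPM in Th-MYCN tumors (edgeR QLF FDR 3.59e-07). Of the receptors, Ifnar2 (1.43 ± 0.20 and 2.18 ± 0.21 SE) and Ifngr1 (1.74 ± 0.26 and 1.72 ± 0.28 SE) were called higher in lymphomas in both comparisons. Ifnar1 was at 68 CPM in EμMyc and 93.2 CPM in Th-MYCN tumors on average (-0.45 ± 0.15 SE, under 2-fold), and Ifngr2 was not called in either.

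The members varied widely between tumors of a type, pooled over both genotypes. The range of log2 CPM over the 7 lymphomas had a median of 2.41 over the members and 1.40 over all genes tested, and over the 8 neuroblastomas 1.88 and 0.99. Part of any range grows as counts fall, and the members were not matched for level. Among lymphomas EuMyc614 was the lowest for 21 of 43 members (all genes 13.6%) and the median member lay 0.78 below its lymphoma median on the log2 scale. EuMycC2ko239, above all EμMyc tumors for 33 members (all genes 16.7%), was below them for 0 (all genes 15.6%). EuMycC2ko215 was above them for 28 (all genes 28.6%) and below for 5 (all genes 31.4%), the latter being Trim25, Eif2ak2, Cmpk2, Parp9 and Dtx3l. EuMycC2ko245 was above them for 18 members (all genes 14.8%) and within their range for 23.

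Among neuroblastomas MYCN391 was the highest for 21 members (all genes 11.9%), with a median deviation of 0.85, and MYCNC2ko180 for 13 (all genes 16.6%), with a median deviation of 0.50. MYCNC2ko118 was the lowest for 20 members (all genes 12.3%). MYCNC2ko118 and MYCNC2ko144 lay below all Th-MYCN tumors for 25 and 24 members (all genes 24.8% and 23.3%), while MYCNC2ko180 did so for 5 (all genes 27.7%). By role, the OAS genes had the largest median deviation in each of 5 tumors. Their median deviation was -2.44 in EuMyc614, 1.56 in EuMycC2ko215, 1.44 in EuMycC2ko239, 1.62 in MYCN391 and 1.20 in MYCNC2ko180. The PARP and DTX3L group shared the deviation in MYCN391 (0.93) but not in EuMycC2ko215 (-0.62). Role groups were not matched for level. In EuMyc614 Oas1a, Oas2, Oas3, Oasl1 and Oasl2 rested on 5, 25, 3, 5 and 17 reads.

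Markers of other cells differed between these tumors too. The 7 T cell markers summed to 5.95 to 57.6 CPM in EμMyc tumors, lowest in EuMyc614, where 1 of the 7 was at 0, and to 1034, 114 and 38.6 CPM in EuMycC2ko215, EuMycC2ko239 and EuMycC2ko245. In EuMycC2ko239 Cd4 alone made up 83 of the 114 CPM. Cd3d, Cd3e and Cd3g were at 3.92, 4.42 and 4.76 CPM there, each above every EμMyc tumor. The 5 NK cell markers gave 2.01 to 6.16 CPM in EμMyc and 5.96 to 31.8 CPM in EμMyc/Casp2-/- tumors, highest in EuMycC2ko215, where Gzma made up 21.7 of 31.8 CPM and Ncr1 and Prf1 were at 0. The 6 dendritic cell markers gave 9.01 to 23.5 CPM in EμMyc tumors against 70.7, 45.9 and 14.8 CPM, of which Ccr9 (41.6) and Itgax (24.4) held most in EuMycC2ko215, and Itgax (18.8) was the highest marker in EuMycC2ko239. In EuMycC2ko215 Siglech was at 0, and Xcr1 (0.977), Clec9a (1.56) and Flt3 (2.15) were below their EμMyc means (1.19, 2.73 and 5.86 CPM). The 8 macrophage and monocyte markers gave 563 to 1163 CPM against 1685, 1015 and 319.7 CPM. For these 4 lists EuMycC2ko215 was the highest lymphoma. In the neuroblastomas the dendritic cell sum was 41.4 CPM in MYCN391 and at most 8.55 CPM elsewhere, but Itgax alone, which macrophages can express too, was 40.2 of the 41.4 CPM, and Ccr9 was at 0. The macrophage sum was highest in MYCN391 (949.5) and MYCNC2ko180 (894) and lowest in MYCNC2ko118 (376). T cell sums stayed at 5.19 to 11.3 CPM and NK cell sums at 0.0726 to 0.865 CPM there, with up to 5 of 7 and 4 of 5 markers at 0. Cd4 made up most of the T cell sum in every neuroblastoma, such as 10.1 of 10.2 CPM in MYCNC2ko176. No macrophage marker was at 0 in any tumor. The 5 endothelial markers summed to 46.3 to 72.3 CPM in Th-MYCN and 18.8 to 30.9 CPM in Th-MYCN/Casp2-/- tumors, without overlap, and to 119 to 232 CPM in EμMyc and 166 to 222 CPM in EμMyc/Casp2-/- tumors. In lymphomas and neuroblastomas fibroblast markers gave 358 to 1393 and 193 to 564 CPM, and Schwann cell markers 0.781 to 10.7 and 24.9 to 75.7 CPM. The part of these cells in the members' values was not tested.

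**Figure D5:**
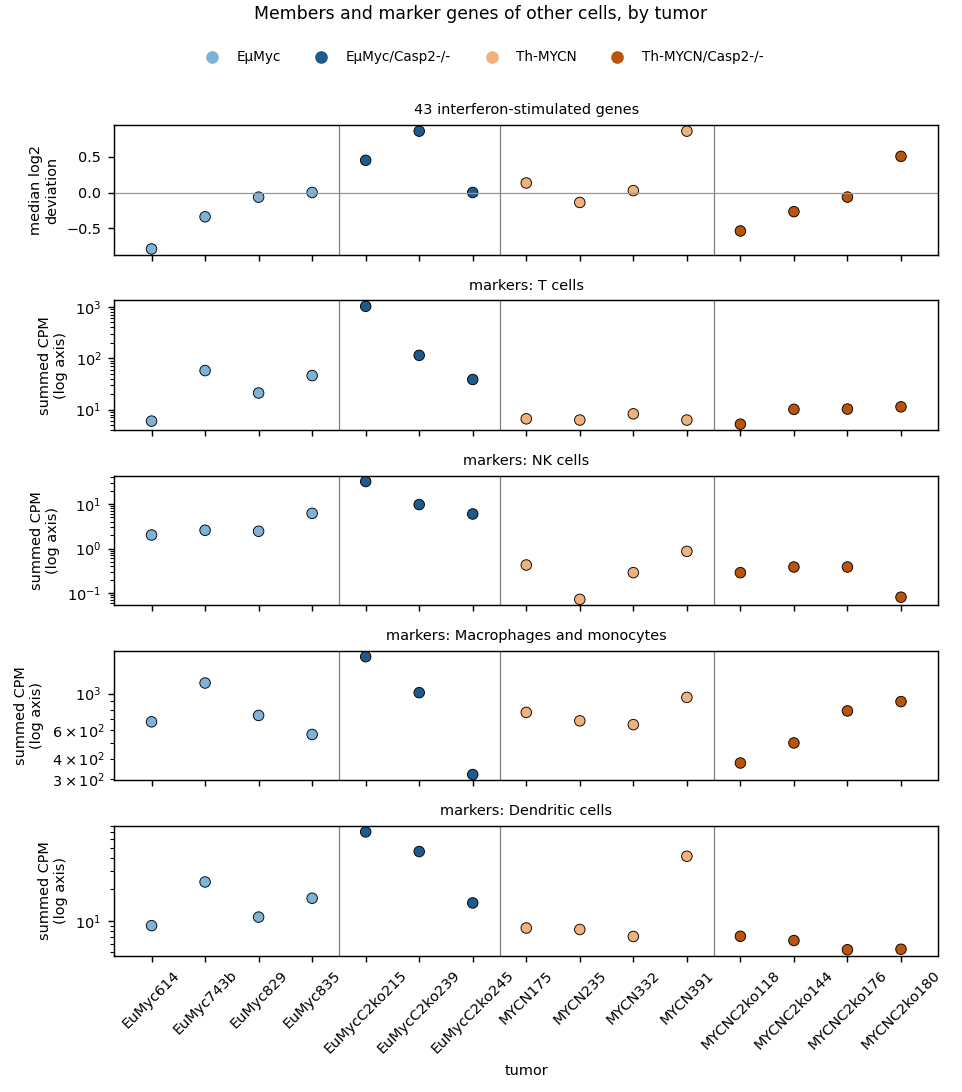
Median deviation of the 43 members from the median tumor of each type (top, log2) and summed CPM of T cell, NK cell, macrophage and monocyte, and dendritic cell markers (log axes) in each of the 15 tumors. EuMycC2ko215 and EuMycC2ko239 are above 0 in the top panel and are the lymphomas with the highest T, NK and dendritic cell sums. In EuMycC2ko215 Gzma held 21.7 of 31.8 CPM of the NK cell sum and Ccr9 41.6 of 70.7 CPM of the dendritic cell sum. Cd4 held 83 of 114 CPM of the T cell sum in EuMycC2ko239. MYCN391 is highest among neuroblastomas for the members and for the macrophage and dendritic cell sums, the latter from Itgax almost alone (40.2 of 41.4 CPM).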

How the data were processed

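Illumina mRNA-seq reads from 15 tumors were checked with FastQC and aligned to mm10 (GRCm38) with STAR by the authors, whose deposited values are unnormalized counts of uniquely mapped reads per gene, on either strand and on each strand; the STAR version and annotation release are not given in the sources used here. The fourth column of each file (second strand) was used. Rows for unmapped reads (2.26 to 11.2% of reads), multimapping reads (15.0 to 24.2%), reads outside genes and ambiguous reads were left out. Genes with CPM over 1 in at least 3 tumors were tested in R 4.3.3 with edgeR 4.0.16: TMM scaling, 1 model of 4 group means, robust QLF and Benjamini-Hochberg adjustment over 14880 genes, a call needing an FDR under 0.05 with a log2 fold change beyond 1 either way. QLF was the main test, and LRT and DESeq2 1.42.0 were run beside it. CPM is scaled by TMM, and log2 CPM has a prior count of 2. Standard errors are the log2 fold change over the square root of the F statistic. No 2 tumors of a group were alike within counting error (chi-square per degree of freedom 16.8 to 76.9, 21 pairs). The members, role groups, pathway genes and markers were chosen with earlier results of these data known. Values in every tumor are given for Irf7, Irf9, Stat2 and Usp18, members called by QLF or LRT between genotypes or in the interaction, the 3 highest and 3 lowest members in each pairwise comparison, and the member of each role group with the highest mean log2 CPM. Exon lengths and overlaps came from GENCODE vM21, and promoters from RefSeq, where Ifi27l1 is a synonym of Ifi27. Ifnl2, Ifnl3 and Ifnlr1 are listed in the count table under older names (Il28a, Il28b, Il28ra). Values of a gene on the pathway list are not reported here. A further EμMyc/Casp2-/- tumor was not analysed here.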

Additional observations from a re-analysis of the deposited data

Results flagged for a closer look

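In each group of 4 tumors the highest or lowest tumor of a member was set against Dixon's limit for a sample far from the others. This was done on log2 CPM, while the values below are in CPM. Of 129 such groups 12 passed it, and chance alone passes about 1 in 20. EuMyc614 stood apart as the low tumor for Oasl1 (0.437 CPM), Ifi44 (0.437 CPM) and Rtp4 (0.437 CPM), each from 5 reads, and EuMyc743b for Samd9l (17.5 CPM). MYCN391 was the high tumor for Ifit2 (32.6 CPM), Parp9 (7.84 CPM) and Lgals3bp (37.4 CPM). In the same group MYCN332 was low for Mx2 (0.231 CPM) and MYCN235 for Ifitm3 (7.34 CPM). Among Th-MYCN/Casp2-/- tumors MYCNC2ko176 was low for Ifih1 (1.74 CPM), MYCNC2ko118 low for Parp9 (2.02 CPM) and MYCNC2ko180 high for Lgals3bp (34.7 CPM). Dixon's limit takes no account of counting error. The 4 Ifih1 values there were 2.02, 1.99, 1.74 and 2.03 CPM, from 28, 31, 18 and 25 reads. Mx2 had 4 reads in MYCN332.

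Rsad2 had values on opposite sides in the 2 tumor types, though neither comparison of genotypes passed a test. Each of the 3 EμMyc/Casp2-/- tumors was above all EμMyc tumors (all genes 1.75%), and each of the 4 Th-MYCN/Casp2-/- tumors was below all Th-MYCN tumors (all genes 3.68%). The share of all genes that do both was not computed. The 4 Th-MYCN/Casp2-/- values of Rsad2 came from 4, 13, 9 and 8 reads. The test of the difference gave 3.13 on the log2 scale (edgeR QLF FDR 0.322, LRT FDR 0.0346).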

How the results depend on the processing

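The calls of members were recomputed with the LRT, DESeq2, RLE scaling, no filter on low counts, counts of either strand, onset as a covariate, only the groups compared, and each tumor left out. Between lymphoma genotypes QLF called 0 members under these settings, except that the LRT called 1, DESeq2 called 3 and leaving out a tumor gave 0 to 1 (Lgals3bp without EuMycC2ko245). Without EuMycC2ko245 QLF called 148 of all genes higher, against 14 with all tumors. The interaction had 1 call with the LRT and 1 with DESeq2 and 0 under the other settings, of which only the groups compared could not be run for it. The neuroblastoma genotypes had 0 calls in every setting, with 39 of 43 members tested when only those groups were used. Between tumor types the count ran from 17 to 22 among wild-type and 30 to 38 among Casp2-/- tumors, both within 1.5 times the reported counts of 19 and 35; Usp18 and Oas2 were the calls lost most often among wild-type and Ifi44 among Casp2-/- tumors. With onset as a covariate the 12 members with p under 0.05 in the interaction became 5. The cause of these changes was not tested. Over 3393 single values of members, 0 reversed a call, and 16 of 1458 values with another setting and 75 of 1935 values without 1 tumor had another sign, none of them called. No paired analysis was run, because each tumor came from 1 mouse and the labels name no pairs of tumors across groups. Counts at an unadjusted p and medians over members were added after seeing the data. All genes were counted at that p with the main settings only. With 3 or 4 tumors a group, a change of a member can have been missed, and the smallest library cannot show levels under 0.586 CPM.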
